A study of Rattus norvegicus with 3 samples.

Results

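Nucleoporins build the nuclear pore complex, the channel through the nuclear envelope, and nuclear transport receptors carry proteins and RNA through it. The genes described here were chosen by name, as all genes whose platform symbol starts with Nup, Ipo or Xpo followed by a digit, or with Kpna or Kpnb followed by a digit, among probe sets annotated with exactly 1 symbol. This gave 36 of 14506 genes, 20 of them named Nup and 16 importins and exportins. Where a gene had several probe sets, the one with the highest mean over the 3 arrays was used, which applied to Kpna2 alone. The GRCr8 gene table held all 36 identifiers under the same symbols, and it lists 1 of them, Nup50-ps1, as a transcribed pseudogene.

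Soleus, a postural hind limb muscle built mainly of slow fibres, was taken from 7-week-old rats of a strain labelled Brown, in 3 groups. Group DN was denervated and irradiated, group TS was suspended by the tail, which takes the load off the hind limbs, and irradiated, and group Ct was irradiated alone. The irradiation was continuous over 2 weeks, to a total absorbed dose of 50 mSv, in all 3 groups, and an unirradiated group was not analysed here. Each array measured 1 pool of RNA from the 6 rats of its group, so no value has an error, no test between groups was possible, and each difference describes these pools. Levels are RMA values read as log2, in which a difference of 1 is 2-fold and of 0.58 is 1.5-fold, the limit used for counting. In whole muscle, fewer cells of a type and less RNA per cell cannot be told apart. Muscle fibre genes listed as a check of the tissue read between 11.31 and 13.90 in DN, between 11.50 and 13.99 in TS and between 12.44 and 13.99 in Ct over 10 genes.

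The pore is built of stacked rings: an outer ring, or Y complex, on each face, an inner ring that lines the membrane, and a central channel filled with nucleoporins rich in phenylalanine-glycine repeats, which form its barrier. Importin alpha recognises the classical nuclear localisation signal and is carried through the pore by importin beta; other members of the importin beta family bind their cargo directly, and exportins carry cargo out. The small GTPase Ran, bound to GTP in the nucleus, releases import cargo and loads export cargo. In a muscle fibre many nuclei share 1 cytoplasm and exchange proteins with it through their pores.

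In suspended soleus, 25 of the 36 genes read above Ct (69.4%, against 52.6% of the 10154 genes bright enough to compare), 3 read below (8.33%, against 22.7%) and 8 exactly the same. At least 1.5-fold higher were 8 genes, or 22.2%, against 5.89% of the compared genes. The 8 were the import receptor gene Kpnb1, the membrane nucleoporin Nup210, the channel gene Nup58, the inner ring gene Nup205, the importins Ipo4 and Ipo9, the exportin Xpo7 and the outer ring gene Nup160. The median of the 36 differences was 0.18, with quartiles of 0.00 and 0.49, whereas the median over all compared genes was 0.02. In denervated soleus 18 of the 36 read above Ct (50%, against 32.8%), 2 below (5.56%, against 24.3%) and 16 the same. None of the 36 was at least 1.5-fold higher, against 4.93% of the compared genes, and the median difference from Ct was 0.00. Only Xpo4 was at least 1.5-fold lower, and it was so in both groups; the share of compared genes that far below Ct was 5.53% in DN and 2.68% in TS. Of the 36 genes, 34 lay at or above the 30th percentile of gene means (5.72), the limit for the genes compared; Nup62cl and Nup50-ps1 lay below it and were equal on all 3 arrays.

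Exact ties can arise in the summary step of RMA, which may return 1 value for 2 arrays, so a tie is not evidence of an equal level. In DN 44.4% of the 36 genes were tied with Ct, against 42.9% of the compared genes, and in TS 22.2%, against 24.7%. The TS array also read higher than Ct, by an amount that depends on the measure. Its median over the compared genes was 0.13 above that of Ct, and that of DN 0.01 above it. Over all probe sets the medians were 6.35 in TS and 6.32 in Ct. The median of the TS minus Ct differences over the compared genes was 0.02. Centring each array on its median over the compared genes takes the median TS minus Ct difference of those genes to -0.12. With that centring, Nup160, Ipo4, Ipo9 and Xpo7 were under 1.5-fold in TS. The 4 of the 36 genes that remained at least 1.5-fold higher were Kpnb1, Nup210, Nup58 and Nup205. The 4 are 11.1% of the 36, against 3.52% of the compared genes with the same centring. The number reading above Ct in TS was then 20 of 36, against 34.9% of the compared genes, and the median of the 36 was 0.04. That is 0.16 above the median of the compared genes, a distance that centring cannot change. The distance was 0.12 with quantile normalization and 0.11 with a loess trend on level removed. Xpo4 was past 2-fold in both groups under every alternative run, its differences running from -1.05 to -1.0 for DN and from -1.43 to -1.26 for TS.

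**Figure D1:**
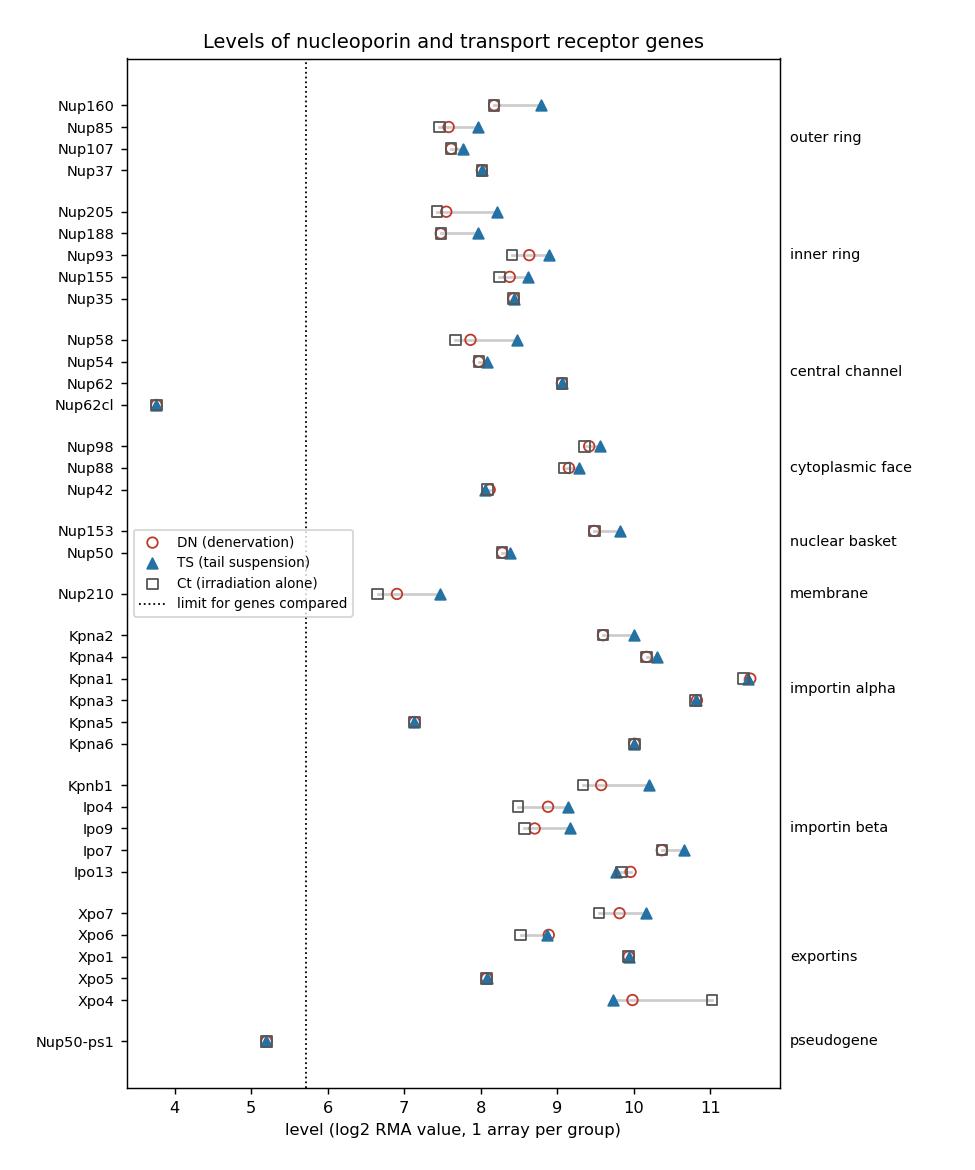
Level of each nucleoporin and transport receptor gene on the DN, TS and Ct arrays (log2 RMA value, 1 array of pooled RNA per group), grouped by role; grey lines join the lowest and highest array of a gene and the dotted line marks the limit for the genes compared (5.72). TS (filled triangles) lies to the right of both other arrays for 21 of the 36 genes, and Xpo4 has its highest value in Ct (11.02).

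Promoters of the 36 genes were read from RefSeq sequence on build GRCr8, as the 250 bases before the annotated start of the gene. A promoter was matched for 30 of the 36 genes, but not for Kpnb1, the highest in TS against Ct, or for Xpo7. Shown are Nup210, Nup58 and Nup205, which are 3 of the 4 genes highest in TS against Ct, Nup62, which was equal on all arrays, and Xpo4, the gene that was lower. Capitals mark matches, on either strand, to any of 5 motifs. The E2F-type motif was searched as TTCCCGCC and the core of the NRF1 motif as GCATGCGC. An ETS-type motif was searched as CCGGAAG. The CCAAT box was searched by its own letters, and the GC box of Sp1 factors as GGGCGG.
Nup210, chr4:125167048-125167297, minus strand: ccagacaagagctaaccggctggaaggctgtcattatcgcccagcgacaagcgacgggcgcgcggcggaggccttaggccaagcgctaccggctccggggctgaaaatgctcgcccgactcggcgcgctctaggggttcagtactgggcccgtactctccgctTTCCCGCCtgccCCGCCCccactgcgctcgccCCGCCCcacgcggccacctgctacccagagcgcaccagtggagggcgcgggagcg
Nup58, chr15:38583166-38583415, minus strand: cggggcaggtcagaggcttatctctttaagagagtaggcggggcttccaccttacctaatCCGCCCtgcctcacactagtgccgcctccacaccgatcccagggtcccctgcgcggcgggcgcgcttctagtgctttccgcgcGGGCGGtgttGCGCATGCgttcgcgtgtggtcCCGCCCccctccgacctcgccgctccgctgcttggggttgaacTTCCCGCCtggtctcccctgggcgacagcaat
Nup205, chr4:64821801-64822050, plus strand: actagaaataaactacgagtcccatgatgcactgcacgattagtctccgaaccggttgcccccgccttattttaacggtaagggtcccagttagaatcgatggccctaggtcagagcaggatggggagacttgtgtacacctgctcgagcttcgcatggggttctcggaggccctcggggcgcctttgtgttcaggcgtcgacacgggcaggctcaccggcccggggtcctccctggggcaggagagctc
Nup62, chr1:104435778-104436027, plus strand: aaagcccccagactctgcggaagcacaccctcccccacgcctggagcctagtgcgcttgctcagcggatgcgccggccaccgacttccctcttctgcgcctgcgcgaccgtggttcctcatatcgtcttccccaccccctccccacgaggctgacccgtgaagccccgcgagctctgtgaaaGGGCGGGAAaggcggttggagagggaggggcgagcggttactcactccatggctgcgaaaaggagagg
Xpo4, chr15:35923263-35923512, minus strand: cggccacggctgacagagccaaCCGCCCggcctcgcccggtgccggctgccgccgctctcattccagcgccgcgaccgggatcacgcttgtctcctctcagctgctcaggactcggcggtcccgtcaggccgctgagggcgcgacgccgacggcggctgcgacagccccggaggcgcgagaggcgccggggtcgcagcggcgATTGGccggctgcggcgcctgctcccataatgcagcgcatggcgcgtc
The E2F-type word stands in 3 of the 30 promoters (10%), those of Nup210, Nup58 and Nup62, against 1.65% of all 27457 promoters of this length and 2.15% of 19005 promoters of protein-coding genes. It begins 87 bases before the start of Nup210, 32 before that of Nup58 and 67 before that of Nup62, where it overlaps a GC box on the opposite strand. Of these 3 genes, Nup210 and Nup58 were among the 4 highest in TS against Ct. Nup62 was tied on all arrays, which is not evidence of an equal level. The windows of Nup205, Nup160, Ipo4 and Ipo9, also at least 1.5-fold higher in TS, hold no E2F-type word. GC boxes stand in 63.3% of the 30 promoters, against 32.4% of all promoters and 40.3% of those of protein-coding genes, and CCAAT boxes in 46.7%, against 34.3% and 35.5%. The NRF1-type core stands in 3 of the 30 promoters (10%), those of Nup58, Nup50 and Xpo5, against 2.38% and 2.95%; Nup58 was among the highest in TS, and Xpo5 was equal on all arrays. ETS-type motifs stand in 10%, against 7.74% and 9.52%. The 30 promoters had a median GC content of 61.4%, against 54.8% for protein-coding genes, and short GC-rich words are found more often in GC-rich sequence. None of the motifs stands in the Nup205 window or in the windows of 6 other genes, Nup160, Nup153, Nup54, Nup35, Ipo7 and Kpna6. A match describes letters in the sequence and not a bound site, and its bearing on the levels was not tested.

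Of a list of 7 outer ring symbols, 4 were found as measured genes, and Nup160 differed most. It encodes a subunit of the long arm of the Y complex and read 8.17 in DN, 8.78 in TS and 8.17 in Ct, 1.53-fold higher in TS than in Ct and tied between DN and Ct. Nup85, of the short arm, read 7.58 in DN, 7.96 in TS and 7.46 in Ct, 0.50 higher in TS than in Ct and 0.12 higher in DN. Both were thus highest in the suspended pool. Nup107 of the stem was 0.16 higher in TS and tied between DN and Ct, and Nup37, which binds Nup160, was equal on all arrays. The list had a median of 0.33 in TS and 0.00 in DN.

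The inner ring had 5 measured genes, 4 of which read above Ct in TS and 3 in DN, against 52.6% and 32.8% of the compared genes. The median difference was 0.48 in TS and 0.12 in DN. Nup205, a large scaffold protein, read 7.55 in DN, 8.21 in TS and 7.43 in Ct, 1.72-fold higher in TS than in Ct and the lowest of all members in DN minus TS (-0.66). Its relative Nup188 was tied at 7.48 in DN and Ct and read 7.96 in TS, a difference of 0.48. Nup93, which ties the inner ring to the channel proteins, read 8.63 in DN, 8.89 in TS and 8.41 in Ct, so that it was 0.23 above Ct in DN and 0.48 above it in TS. These 3 scaffold genes thus stood highest in the suspended pool, and Nup155, which contacts the membrane, followed with 0.37 in TS and 0.13 in DN. Nup35 was equal on all arrays.

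Central channel genes differed among themselves. Nup62, Nup58 and Nup54 encode the 3 partners of the channel complex. Of these, Nup58 alone was past 1.5-fold against Ct, in TS only, where 5.89% of the compared genes were that much higher. It read 7.87 in DN, 8.47 in TS and 7.67 in Ct, which is 1.74-fold higher in TS than in Ct and 1.15-fold higher in DN. Nup54 was 0.10 higher in TS and tied between DN and Ct, and Nup62 read 9.06 on every array. Centring on the compared genes turns the Nup54 difference to -0.03.

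On the cytoplasmic face and among mobile nucleoporins, differences were small. Nup98, a repeat protein found on both faces, was 0.20 higher in TS and 0.06 higher in DN, and Nup88, a partner of the cytoplasmic filaments, 0.19 and 0.06. Nup42, which acts with Gle1 in messenger RNA export in yeast and human cells, read 8.12 in DN, 8.06 in TS and 8.09 in Ct, within 0.06 between any pair of arrays. In the nuclear basket, the filamentous structure on the inner face, Nup153 read 9.48 in DN, 9.82 in TS and 9.48 in Ct, a difference of 0.33 between TS and Ct with a tie in DN. Its partner Nup50 was 0.10 higher in TS, again with a tie in DN, a difference that is -0.03 after centring on the compared genes.

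Nup210 encodes gp210, a nucleoporin that spans the membrane and is needed for muscle differentiation in cultured mouse cells. It read 6.91 in DN, 7.47 in TS and 6.65 in Ct. The suspended pool was 0.82 above Ct and the denervated pool 0.25 above it, the 4th highest of the 36 differences in DN and the 2nd highest in TS.

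**Figure D2:**
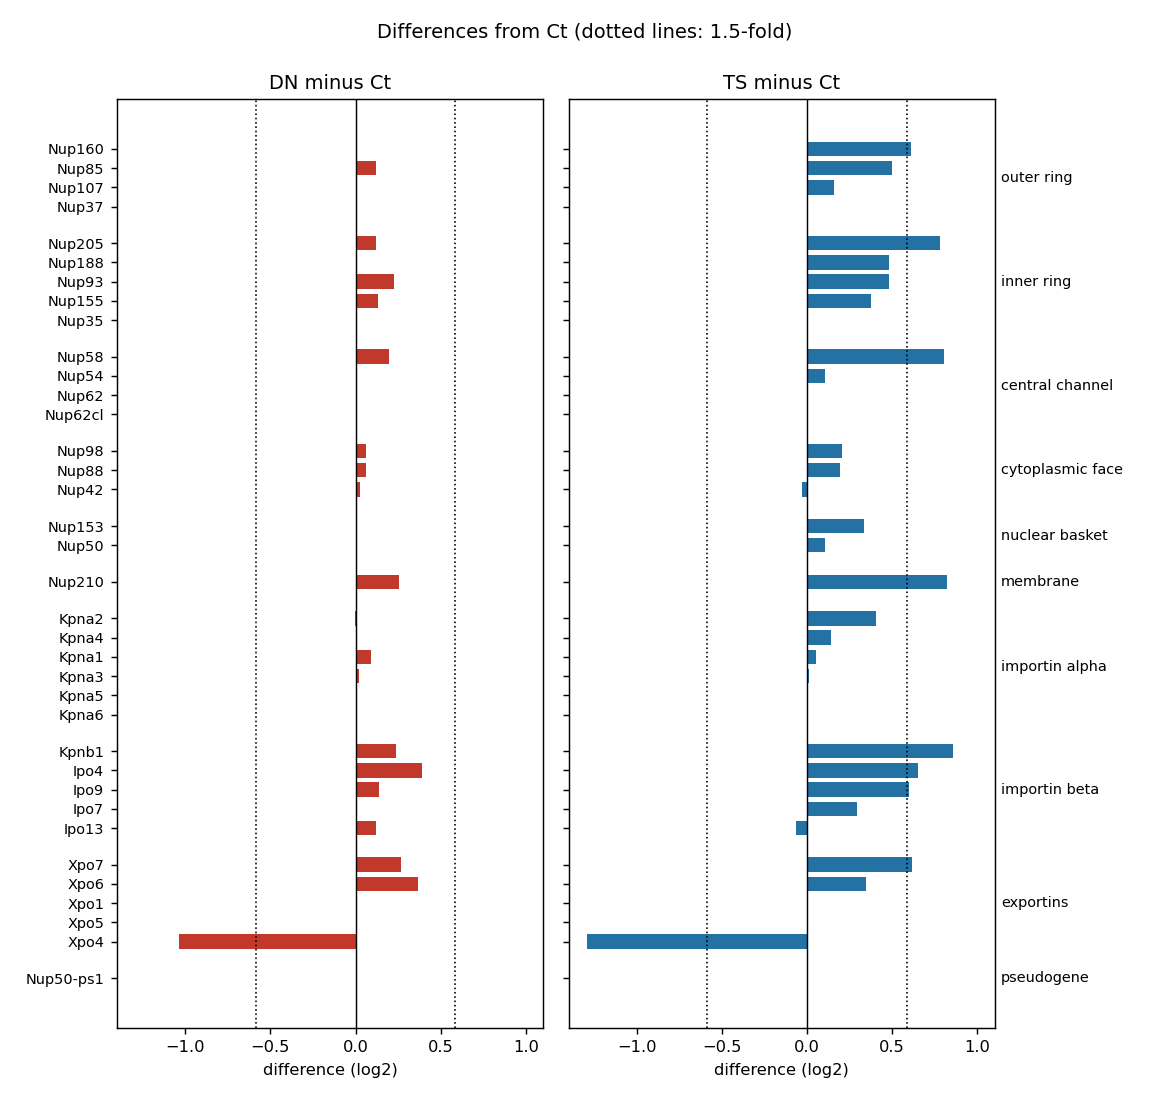
Difference of each gene from Ct (log2) in DN, left, and in TS, right, grouped by role; dotted lines mark 1.5-fold. In TS 8 bars pass the line on the high side, from Kpnb1 (0.86) to Ipo9 (0.60), whereas none does in DN, and Xpo4 passes it on the low side in both.

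The importin alpha genes, the adaptors for classical localisation signals, differed little apart from Kpna2. Kpna2, a form known to be abundant in dividing cells, read 9.60 in DN, 10.002 in TS and 9.60 in Ct, a 1.32-fold difference between TS and Ct. A further Kpna2 probe set gave 9.60 in DN, 9.93 in TS and 9.60 in Ct, a TS difference of 0.33, and is not an independent measurement. Kpna4 was 0.14 higher in TS and tied in DN, and Kpna1 read 11.52 in DN, 11.49 in TS and 11.43 in Ct, 0.09 higher in DN and 0.05 higher in TS. Kpna3 read 10.82 in DN, 10.82 in TS and 10.80 in Ct, and Kpna5 and Kpna6 were equal on all 3 arrays. The TS differences of Kpna1 and Kpna3 turn negative, to -0.08 and -0.12, with centring on the compared genes. None of the 6 was past 1.5-fold in either group, with a median of 0.03 in TS and 0.00 in DN. Of the compared genes, 5.89% were that much higher and 2.68% that much lower in TS, and 4.93% and 5.53% in DN. At such shares, few or none of 6 genes would pass the limit.

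Among the 5 measured genes of the importin beta family, 3 were at least 1.5-fold higher in TS, against 5.89% of the compared genes. Their median was 0.60 in TS and 0.13 in DN. Kpnb1, which encodes importin beta itself, had the highest TS difference of the 36 genes. It read 9.57 in DN, 10.19 in TS and 9.34 in Ct, 1.81-fold higher in TS than in Ct and 1.18-fold higher in DN. Denervated and suspended pools thus both read above Ct, the suspended one further. Ipo4, a receptor for histones and ribosomal proteins, read 8.88 in DN, 9.14 in TS and 8.49 in Ct, and its DN difference of 0.39 was the highest among the 36 genes. Ipo9, which imports histones and actin, read 8.70 in DN, 9.17 in TS and 8.57 in Ct, 1.51-fold higher in TS. Ipo4 in TS was 1.57-fold above Ct; both it and Ipo9 went below 1.5-fold with quantile normalization, with the trend on level removed, or with centring on the compared genes. Ipo7, an importer of ribosomal proteins, read 10.66 in TS against a tied 10.37 in DN and Ct. Ipo13, which works in both directions, read 9.96 in DN, 9.77 in TS and 9.84 in Ct, and was 1 of the 3 genes below Ct in TS (-0.06).

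The 5 exportin genes went in different directions. Xpo4, the export receptor of the translation factor eIF5A and of Smad3, read 9.98 in DN, 9.73 in TS and 11.02 in Ct. It thus stood at 0.487 times the Ct level in DN and 0.408 times in TS, the lowest difference of the 36 genes in both, and 0.31% of the compared genes had a lower TS minus Ct difference. Both comparisons use the same Ct array, so the high Ct value enters both. Xpo7, an exportin with a broad range of cargo, read 9.81 in DN, 10.16 in TS and 9.55 in Ct, 1.53-fold higher in TS and 1.20-fold higher in DN. Xpo6, the exporter of actin, read 8.89 in DN, 8.87 in TS and 8.52 in Ct, so that both groups stood above Ct by nearly the same amount (0.37 and 0.34). Xpo1, the main receptor for leucine-rich export signals, read 9.93 on each array, and Xpo5, the exporter of microRNA precursors, was equal on all 3.

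Set directly against each other, the denervated pool read below the suspended pool for 21 of the 36 genes (58.3%, against 50.3% of the compared genes), above it for 6 (16.7%, against 23.3%) and the same for 9 (25%, against 26.3%). These counts depend on the scaling: DN read above TS for 15 of the 36 with centring on all probe sets (against 52.2% of the compared genes), 14 with quantile normalization (57%), 15 with trend removal (58.2%) and 17 with centring on the compared genes (65.9%). Centring gives tied genes the sign of the shift between the arrays. Past the 1.5-fold limit on the low side were Nup205 (-0.66), Kpnb1 (-0.62), Nup160 (-0.61) and Nup58 (-0.60), 11.1% of the 36 against 5.93% of the compared genes. None was that much higher, against 3.2%, and the highest were Xpo4 (0.26), Ipo13 (0.18), Nup42 (0.06) and Kpna1 (0.04). The median was -0.14 for the 36 genes and -0.0028 for all compared genes. With quantile normalization, trend removal or centring on the compared genes, none of the 36 passed that limit on the low side, against 4.8%, 4.78% and 3.76% of the compared genes. TS read above both other arrays for 21 of the 36 genes (58.3%), against 40.1% of the compared genes.

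**Figure D3:**
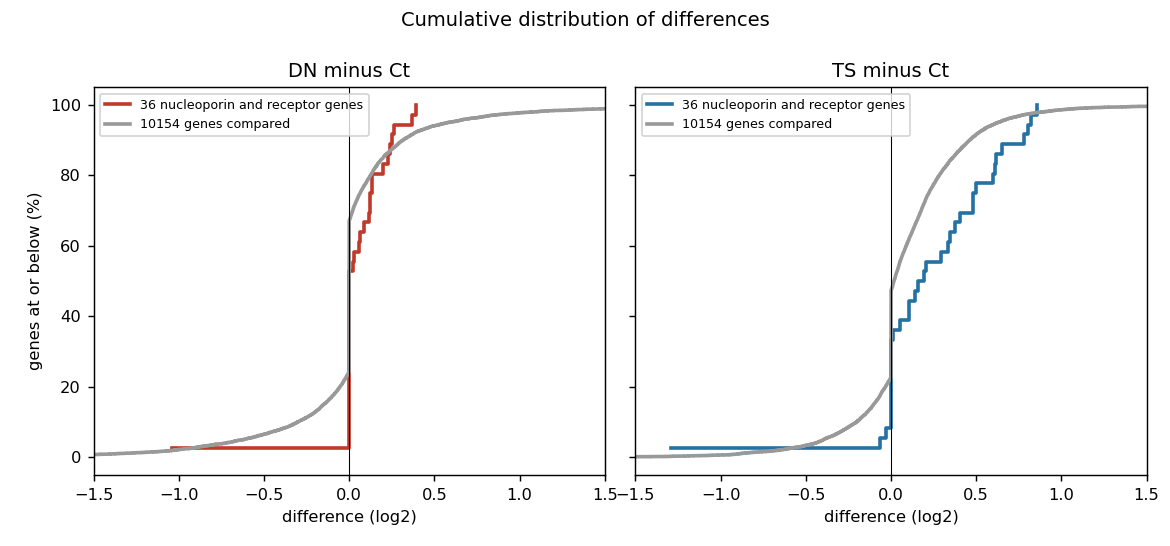
Cumulative share of genes (%) against the difference from Ct (log2) in DN, left, and TS, right, for the 36 nucleoporin and receptor genes (coloured) and the 10154 genes compared (grey); the axis stops at 1.5 in both directions. In TS the coloured line runs to the right of the grey one over most of the range above 0 (medians 0.18 and 0.02), while in DN both have their median at 0.00.

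Pore genes whose names the rule does not cover were also read. A search for 15 symbols, earlier names of Ndc1, Nup58 and Nup42 among them, gave 9 measured genes. All 9 read above Ct in TS, against 52.6% of the compared genes. Sec13, a subunit shared by the pore and the COPII coat, was the 1 gene past 1.5-fold (10.24 in DN, 10.85 in TS and 9.93 in Ct), against 5.89%. The median of this list was 0.30 in TS and 0.01 in DN. Gle1, the messenger RNA export factor, stood 0.58 higher in TS, and the basket protein gene Tpr 0.16 higher. Of 13 measured genes of the Ran cycle and of other carriers, 12 read above Ct in TS and 9 in DN, with medians of 0.33 and 0.03. The shares of the compared genes above Ct were 52.6% in TS and 32.8% in DN. Rangap1, which makes Ran hydrolyse GTP at the cytoplasmic face, read 9.01 in DN, 9.19 in TS and 8.45 in Ct, the 1 gene of the list past 1.5-fold in TS (0.74). Ran itself was 0.55 higher in TS and 0.04 higher in DN. Cse1l, which returns importin alpha to the cytoplasm, was 0.09 below Ct in TS and 0.19 above it in DN. Centring on the compared genes takes 0.13 from every TS minus Ct difference, more than those of Rae1 (0.06) and Tnpo3 (0.07).

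Markers of other cells and of dividing cells were read beside these values. All 12 macrophage markers read above Ct in TS, 4 of them at least 1.5-fold, with a median of 0.55, and their summed level on the linear scale was 7914 in DN, 10094 in TS and 7232 in Ct. In DN 9 of the 12 read above Ct, with a median of 0.12. Of the compared genes, 52.6% read above Ct in TS, 5.89% at least 1.5-fold, and 32.8% read above Ct in DN. Centring on the compared genes takes 0.13 from every TS minus Ct difference. That is more than those of the macrophage markers C1qa (0.09) and Lyz2 (0.11) and of the mitosis gene Birc5 (0.11). The macrophage markers Adgre1 (0.60) and C1qb (0.68) are then under 1.5-fold. With that centring, 34.9% of the compared genes read above Ct in TS, and 3.52% at least 1.5-fold. Genes of S phase and mitosis read above Ct in TS for 15 of 15 measured, 6 of them at least 1.5-fold, with a median of 0.55 and a summed level of 2691 in DN, 3803 in TS and 2542 in Ct; their median in DN was -0.10. Ccna2, Cdk1, Birc5 and Bub1b of that list lay below the limit for compared genes, whereas no macrophage marker did. Both lists thus had their highest summed level in the TS pool. TS was also highest for 21 of the 36 nucleoporin and receptor genes (58.3%), against 40.1% of the compared genes. The part of macrophages and dividing cells in those differences was not tested. Endothelial markers had medians of -0.32 in DN and -0.27 in TS, adipocyte markers of 0.90 and 0.84, Schwann cell and nerve markers of 0.00 and 0.21, and satellite cell, fibroblast and lymphocyte markers had medians within 0.01 of 0 in both groups. Single markers differed by more: among satellite cell markers, Myf5 was 2.00 above Ct in DN and 0.82 above it in TS, and Chodl was 0.33 below Ct in DN and 0.90 below it in TS. Of the fibroblast markers, Pdgfra was 0.40 higher in DN and 0.81 higher in TS. Muscle fibre markers had medians of -0.40 in DN and -0.26 in TS.

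**Figure D4:**
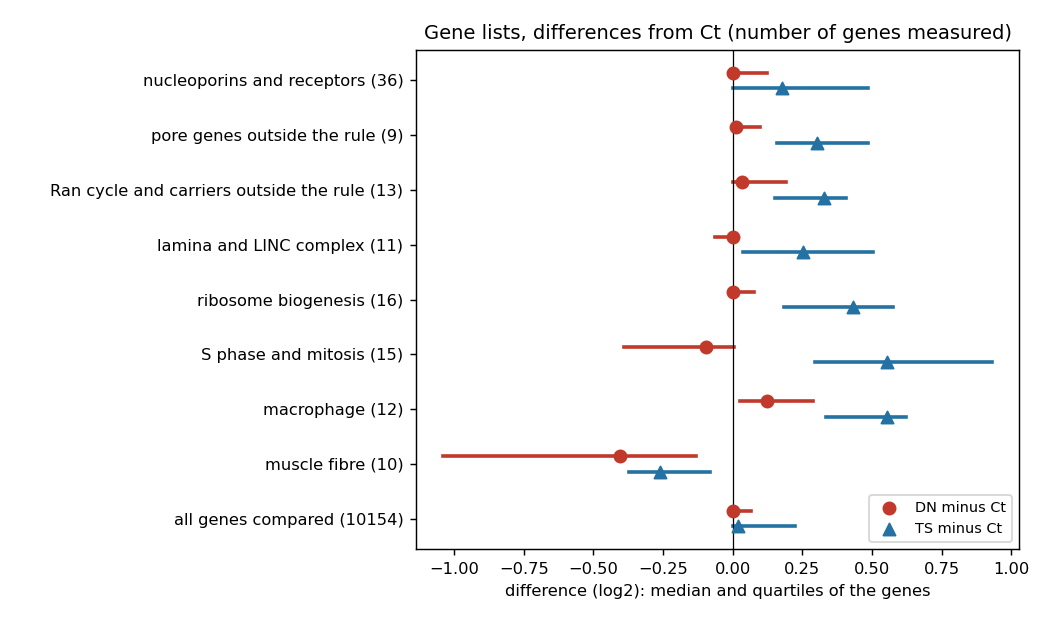
Median difference from Ct (log2, symbols) and quartiles (ends of the lines) for DN and TS, for the 36 nucleoporin and receptor genes, related lists, 2 of the marker lists beside S phase and mitosis, and all genes compared; the number of genes measured is in brackets. In TS the medians of the pore, Ran, lamina, ribosome biogenesis, S phase and macrophage lists lie between 0.25 and 0.55, and in DN between -0.10 and 0.12.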

How the data were processed

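Per the labels' protocols and the submitters' processing notes, the authors made the deposited log2 values with Affymetrix Expression Console by RMA in a core-exon analysis. No label gives the logarithm's base, which was read as 2. Arrays were Affymetrix Rat Gene 1.0 ST. The version of the software was not given in the sources used here, nor was the annotation build. The series text speaks of 2 arrays where 3 samples were used. Gene names came from the platform annotation (15310 of 29170 probe sets had 1 symbol, 323 several and 13537 none).

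Differences of log2 values were taken between arrays; with 1 array per group no p-value was computed, and the number of arrays limits the precision. Genes were counted at a 1.5-fold limit, against the genes at or above the 30th percentile of gene means. The genes, lists and limits were chosen with earlier results of these data known. Every member is described, with values on all arrays for the 4 highest and 4 lowest in each comparison (ties at 0 unranked), those past 1.5-fold, and Kpna2, Kpnb1, Xpo1 and Nup153; other genes were named after their values were seen. The counting was tested on simulated data with planted 2-fold changes, small noise, and no ties or shift between arrays, which checks the code only. Alternatives were centring, quantile normalization, removal of a loess trend (span 0.3), 32 added on the linear scale, filters at the 30th and 50th percentiles, the mean of probe sets, single-probe-set genes, a 2-fold limit, and leaving out ties; centring on the compared genes was added after seeing the data. Promoter sequences are RefSeq's. The tools were pandas 2.3.3, numpy 2.4.6, statsmodels 0.14.6 and matplotlib 3.10.9 in Python 3.11.15.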

Additional observations from a re-analysis of the deposited data

How the results depend on the processing

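With 1 array per group, no alternative measures the spread between samples, and no replicate could be left out. No paired analysis was possible because each group has 1 array. A median was taken as moved past 0.1 (log2) and a count past 1.5 times. Of 96 recomputed medians and counts, 79 stayed within these limits. That share is not a measure of stability, because several alternatives could hardly change the result. Among these genes Kpna2 alone had several probe sets, so both alternatives on probe sets altered or dropped only that gene. The lower percentile filter dropped only genes that were equal on all arrays. The counts past the fold limit in DN minus Ct were the same in every alternative. The DN minus Ct median, 0.00, became -0.013 with centring on all probe sets and -0.0064 with centring on the compared genes, and 0.12 without tied genes. The TS minus Ct median, 0.18, became 0.044 with centring on the compared genes and 0.34 without ties, and the DN minus TS median, -0.14, became -0.011 and -0.25. The count of 8 genes past 1.5-fold on the high side in TS minus Ct became 5 with centring on all probe sets and 4 each with quantile normalization, trend removal and centring on the compared genes; the share of compared genes past that limit, 5.89%, became 5.16%, 4.62%, 4.57% and 3.52%. Centring takes a fixed amount from every difference; for the other alternatives the cause was not tested. At the 2-fold limit there were 0, against 1.37%. The 4 genes lower in DN than in TS became 0 under quantile normalization, trend removal, centring on the compared genes and the 2-fold limit, and 1 with 32 added, while the share of compared genes, 5.93%, became 4.8%, 4.78%, 3.76%, 1.74% and 4.76%. The 6 genes higher in DN than in TS became 14 to 17 under centring, quantile normalization and trend removal. Nup160, Ipo4, Ipo9 and Xpo7 were under 1.5-fold in TS in at least 3 alternatives each. Kpnb1, Nup210, Nup58 and Nup205 kept TS minus Ct differences past 1.5-fold in each alternative run, the lowest being 0.648 for Nup205.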

Other observations

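Genes of the nuclear lamina, which lies under the pores, and of the LINC complex, which couples it to the cytoskeleton, were measured for 11 genes of a list of 13. In TS 8 read above Ct and none below, with a median of 0.25, and in DN 3 read above and 3 below, with a median of 0.00. Of the compared genes, 52.6% read above Ct and 22.7% below in TS, and 32.8% above and 24.3% below in DN. Lmna, which encodes lamins A and C, read 10.53 in DN, 10.76 in TS and 10.06 in Ct. It was the 1 gene of this list past 1.5-fold in TS (0.70), or 9.09%, against 5.89% of the compared genes. Lmnb1 was 0.49 higher in TS with a tie in DN, and Emd, which encodes emerin, 0.54 and 0.02. With 0.13 taken from every TS minus Ct difference by centring on the compared genes, Lmna was under 1.5-fold. Tmpo (0.07) and the genes tied between TS and Ct then read below Ct.

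Ribosome biogenesis depends on import of ribosomal proteins and on export of ribosomal subunits, and 16 of 18 genes of such a list were measured. In TS 15 read above Ct and 4 were at least 1.5-fold higher, against 52.6% and 5.89% of the compared genes. The median was 0.43 in TS and 0.00 in DN. Polr1a, the large subunit of RNA polymerase I, read 7.53 in DN, 8.32 in TS and 7.39 in Ct, and Nop56, a nucleolar protein, read 9.85 in DN, 10.72 in TS and 10.04 in Ct. The others past 1.5-fold were Bop1 (0.79) and Wdr43 (0.79). Ncl, which encodes nucleolin, stood 0.40 above Ct in DN and 0.03 above it in TS. Centring on the compared genes takes 0.13 from every TS minus Ct difference. Nop56 (0.67) is then under 1.5-fold. Ncl, Fbl (0.08), Nmd3 (0.09) and Npm1, which was tied on all arrays, then read below Ct. With that centring, 34.9% of the compared genes read above Ct in TS, and 3.52% at least 1.5-fold.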
